A study of Mus musculus with 15 samples.

Results

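The replication-dependent histone genes of J1 embryonic stem cells were taken as the 70 gene rows of the count table whose symbol names a clustered H1, H2A, H2B, H3 or H4 gene (Hist1, Hist2, Hist3 or Hist4) and whose mean count over 9 libraries was 10 or more. All 70 rows with such a symbol met the count rule, of 37310 gene rows in the table, and all 70 passed the filter on low counts of the model fit. The lowest member mean was 19.6 counts and the highest 12500 counts, so no member lay near the rule's threshold. Classes follow the symbols, although GENCODE M21 lists Hist1h2aj, Hist1h2al and Hist3h2bb-ps as pseudogenes. Of the members, 6 are named as linker histone H1 and 64 as core histones, with 20 H2A, 19 H2B, 12 H3 and 13 H4 rows. The Hist1 cluster on chromosome 13 holds 56 of them, the Hist2 cluster on chromosome 3 holds 10, the Hist3 cluster on chromosome 11 holds 3, and Hist4h4 on chromosome 6 stands alone.

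The 9 libraries were RNA-seq of J1 cells, a mouse embryonic stem cell line grown in serum with LIF, with Taf5l knocked out (Taf5l-KO), with Taf6l knocked out (Taf6l-KO) or wild type (WT-Taf, the J1 controls labelled for the Taf knockouts), with 3 replicates in each group. A separate set of c-Myc knockout cells (cMyc-KO) and its own J1 wild type (WT-Myc), 3 libraries each, served for the level of these RNAs and otherwise entered only an alternative fit of all 15 libraries. The labels do not say how the knockouts were made, whether each is 1 clone, or whether replicates are separate cultures, so p-values here measure only the spread between these libraries. The comparison asks how loss of each subunit changed the transcripts of embryonic stem cells.

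Replication-dependent histone genes are transcribed in S phase, when new DNA needs nucleosomes, and their mRNAs end in a conserved stem-loop bound by SLBP in place of a poly(A) tail. Core histones H2A, H2B, H3 and H4 form the nucleosome, and linker H1 binds the DNA that enters and leaves it. TAF5L and TAF6L are subunits of SAGA, a coactivator complex with histone acetyltransferase and deubiquitinase modules.

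The stem-loop was searched on the sense strand of GENCODE M21 transcripts (GRCm38) as the left arm GGCNCT, the loop TNTN and the right arm AGNGCC in direct succession, where N is any base. It was found in 44 of 70 members and in 57 of 55450 genes with a transcript (0.103%). For the other 26 members this says only that these letters are not in the annotated transcripts. The 10 H4 genes with a match all began GGCCCT, while the 34 matches in H1, H2A, H2B and H3 genes all began GGCTCT. After the match, the annotated transcripts of the genes shown run on for 840 bases in Hist1h1c, 1643 in Hist3h2a and 752 in Hist1h3d. They run on for 30 bases in Hist1h2bk and 31 in Hist1h4n. A gene of each class is shown because the results below are given by class. The stem-loop is in capitals, with 5 flanking bases on each side.
Hist1h1c (H1): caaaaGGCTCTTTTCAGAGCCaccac
Hist3h2a (H2A): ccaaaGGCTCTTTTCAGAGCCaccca
Hist1h2bk (H2B): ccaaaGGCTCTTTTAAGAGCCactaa
Hist1h3d (H3): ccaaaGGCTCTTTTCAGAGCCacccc
Hist1h4n (H4): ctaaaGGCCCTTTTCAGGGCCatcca

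Promoters of 61 members were matched by symbol or synonym to the RefSeq table (GRCm38.p6), each a window of 300 bases around the annotated start. The letters searched, on both strands, were those of the core promoter box read as TATAAA, the NF-Y site read as CCAAT, the octamer bound by POU factors such as OCT1, read as ATTTGCAT, and the H1 box, read as AAACACA. None of these holds another. The windows of paired H2A and H2B genes can overlap, so the same site can count in both classes. Hist1h2aa and Hist1h2ba, for example, share their octamer and their H1 box. CCAAT was present in 52 of 61 member promoters (85.2%) and in 37.4% of 32851 promoters, and within the family in every matched H1, H2A, H2B and H3 promoter but in 3 of 12 H4 promoters. TATAAA was present in 35 of 61 (57.4%) and in 13.6% of all promoters. The octamer was found in 6 of 16 H2B and 7 of 17 H2A promoters and in no H1, H3 or H4 promoter, against 1.74% of all promoters. The H1 box was found in 5 of 6 H1, 2 of 17 H2A and 2 of 16 H2B promoters and in no H3 or H4 promoter, against 7.18% of all promoters. The promoters below, with every match on either strand in capitals, are those of a linker gene, the H2B gene and the H4 gene with the highest mean counts of their classes, and Hist3h2a, which was lower in both knockouts.
Hist1h1c, chr13:23738557-23738856, plus strand: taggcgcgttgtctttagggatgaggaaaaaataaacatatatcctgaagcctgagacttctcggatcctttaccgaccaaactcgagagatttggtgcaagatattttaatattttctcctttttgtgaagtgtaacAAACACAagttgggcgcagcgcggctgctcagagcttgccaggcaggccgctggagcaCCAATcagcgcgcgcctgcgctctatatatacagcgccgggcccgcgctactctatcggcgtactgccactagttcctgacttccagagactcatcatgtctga
Hist1h2bk, chr13:22035571-22035870, plus strand: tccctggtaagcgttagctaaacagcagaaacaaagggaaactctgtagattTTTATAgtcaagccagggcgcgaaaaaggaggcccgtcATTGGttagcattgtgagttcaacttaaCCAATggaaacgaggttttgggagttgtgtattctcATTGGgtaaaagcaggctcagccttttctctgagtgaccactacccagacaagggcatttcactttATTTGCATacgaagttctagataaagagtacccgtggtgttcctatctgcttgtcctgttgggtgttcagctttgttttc
Hist1h4k, chr13:21750504-21750803, minus strand: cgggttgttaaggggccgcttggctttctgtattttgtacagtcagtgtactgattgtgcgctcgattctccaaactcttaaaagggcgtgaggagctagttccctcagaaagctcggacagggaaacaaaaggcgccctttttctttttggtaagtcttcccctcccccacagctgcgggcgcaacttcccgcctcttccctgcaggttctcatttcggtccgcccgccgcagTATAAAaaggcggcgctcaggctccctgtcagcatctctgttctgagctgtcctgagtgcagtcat
Hist3h2a, chr11:58954435-58954734, plus strand: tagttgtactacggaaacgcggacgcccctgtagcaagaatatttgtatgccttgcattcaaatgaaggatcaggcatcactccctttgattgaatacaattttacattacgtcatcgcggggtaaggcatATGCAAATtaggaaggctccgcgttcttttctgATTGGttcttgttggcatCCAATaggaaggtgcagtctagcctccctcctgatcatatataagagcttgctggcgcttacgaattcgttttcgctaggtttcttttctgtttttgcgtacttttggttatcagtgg

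Library totals ran between 14935631 and 21767884 counts in the 9 libraries. Taf5l fell to 43.0, 42.9 and 41.7 CPM (counts scaled to equal library size) in the Taf5l-KO libraries, against 88.1, 85.3 and 84.5 CPM in WT-Taf (-1.02 ± 0.04 on the log2 scale, SE), so that part of its RNA was still counted. Taf6l fell to 6.53, 7.17 and 6.06 CPM in Taf6l-KO, against 26.8, 26.3 and 25.2 CPM in WT-Taf (-1.99 ± 0.08, SE). The 6 pluripotency markers together summed to between 2878 and 2965 CPM in Taf5l-KO, between 3009 and 3175 CPM in Taf6l-KO and between 3413 and 3428 CPM in WT-Taf, and none was at 0. The 6 markers of feeder fibroblasts, with Lum at 0 in all 9 libraries, summed to 4.20 to 5.23 CPM in Taf5l-KO and 5.19 to 6.47 CPM in Taf6l-KO, against 7.52 to 8.89 CPM in WT-Taf. The 4 neuroectoderm markers found of 5 summed to 40.2 to 42.1 CPM in Taf5l-KO and 38.4 to 40.3 CPM in Taf6l-KO, against 33.5 to 36.8 CPM in WT-Taf. The 5 mesoderm markers summed to 4.89 to 5.40 CPM in Taf5l-KO and 4.04 to 5.39 CPM in Taf6l-KO, against 5.69 to 6.39 CPM in WT-Taf. The 5 primitive endoderm markers summed to 6.05 to 6.23 CPM in Taf5l-KO and 6.71 to 7.68 CPM in Taf6l-KO, against 6.43 to 7.24 CPM in WT-Taf. Mitochondrial ribosomal RNA took between 4.52 and 5.50% of counts in Taf5l-KO, between 4.50 and 5.00% in Taf6l-KO and between 5.19 and 5.67% in WT-Taf, and small non-coding RNA genes took between 2.79 and 3.10% in Taf5l-KO, between 1.99 and 2.53% in Taf6l-KO and between 2.47 and 2.75% in WT-Taf. The part of these markers and shares in the histone values was not tested.

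Replicate 3 of Taf5l-KO stood apart from the other 2 libraries of its group. It was the lowest of the 3 for 67 of 70 members, and it lay below all 3 WT-Taf libraries for 55 members. Replicates 1 and 2 of Taf5l-KO were both below all WT-Taf libraries for 13 members and both above them for 26. The same counts over all genes are not given, so whether this order is particular to histone genes was not tested. The median member, as log2 CPM minus the WT-Taf mean, was 0.04, 0.02 and -0.33 in the 3 Taf5l-KO libraries and -0.41, -0.52 and -0.62 in the 3 Taf6l-KO libraries, against 0.04, -0.01 and -0.04 in the 3 WT-Taf libraries. The numbers of members called in Taf5l-KO are therefore given with and without that library. Values of single genes and lists use all 9 libraries unless stated.

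**Figure D1:**
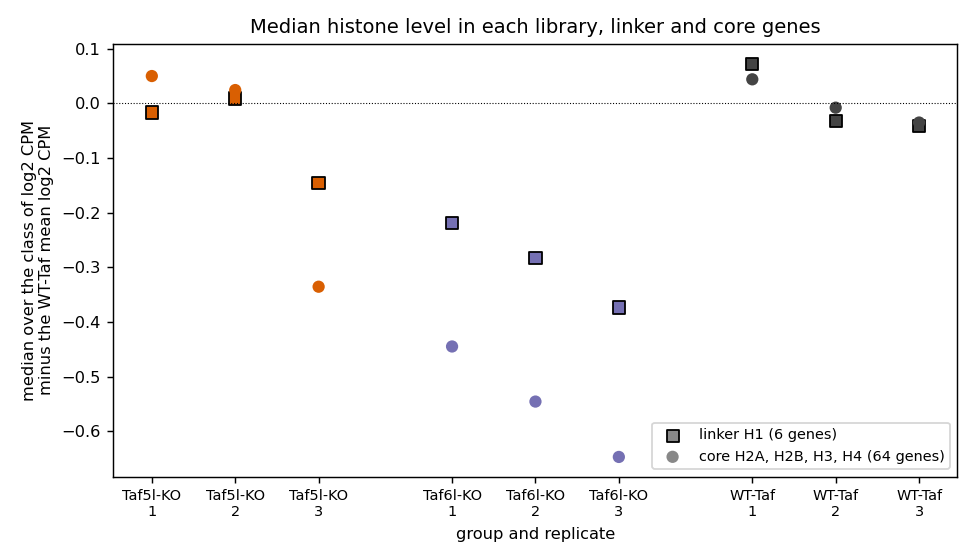
Median over the 6 linker genes (squares) and the 64 core genes (circles) of log2 CPM minus the WT-Taf mean, for each library on the x axis. The core median was below the linker median in all 3 Taf6l-KO libraries (-0.44 and -0.22, -0.55 and -0.28, -0.65 and -0.37) and in Taf5l-KO replicate 3 (-0.34 and -0.15).

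Most histone genes of every class were lower in Taf6l-KO cells. In Taf6l-KO over WT-Taf, 60 of 70 members were lower and 0 higher (edgeR quasi-likelihood test, adjusted p under 0.05 by Benjamini-Hochberg over 15743 genes), where 18.2% of all genes tested were called lower and 19.1% higher (37.2% in either direction). By DESeq2 the counts were also 60 and 0, and 63 members had an unadjusted p under 0.05 in edgeR, all but 1 of all 70 members having a negative fold change. The median log2 fold change of the members was -0.53, beside 0.02 over all genes. In all 60 members called lower, the 3 Taf6l-KO libraries lay below the 3 WT-Taf libraries. The same share among all genes called lower is not given. Of these 60 calls, 57 held in every fit that left out a single library. In bulk RNA, fewer cells in S phase and less histone mRNA per cell cannot be told apart.

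In Taf5l-KO cells some members were higher and some lower, with all libraries in neither direction more often than genes in general. In Taf5l-KO over WT-Taf, 8 members were higher and 11 lower, where 17.4% of all genes tested were called higher and 15.9% lower, or 33.2% in either direction, and 51 members did not pass the test. The median was -0.09, beside 0.00 over all genes. Without Taf5l-KO replicate 3, 16 members were higher and 7 lower, with a median of 0.03. All 8 of the higher calls and 7 of the 11 lower calls were among these. By class, the higher and lower calls without that library were 1 and 0 for H1, 5 and 2 for H2A and 2 and 3 for H2B. They were 1 and 1 for H3 and 7 and 1 for H4. The shares over all genes in that fit are not given. The lower calls numbered 21 without Taf5l-KO replicate 1 and 5 without WT-Taf replicate 1, and the higher calls 5 without Taf5l-KO replicate 2, WT-Taf replicate 2 or WT-Taf replicate 3. In every fit that left out a single library, 5 of the higher calls (Hist1h2ac, Hist1h2ai, Hist1h2bq, Hist1h4n and Hist2h3c1) and 5 of the lower calls (Hist1h2ba, Hist1h2bp, Hist1h4m, Hist3h2a and Hist3h2ba) held. With counts scaled by library totals in place of TMM, the higher share of the members called was 25.9%, against 42.1% with TMM. The higher share of all genes called in this contrast moved the same way, to 45.5% with library totals, against 52.3% with TMM.

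The knockouts were also compared with each other, which tests the difference between their effects. In Taf6l-KO over Taf5l-KO, 59 members were lower and 1 higher, where 10.1% of all genes were called lower and 8.55% higher (18.7% in either direction). The median was -0.44, beside 0.01 over all genes, and it was -0.55 without Taf5l-KO replicate 3. With library totals in place of TMM the higher share of all genes called in this contrast was 83.1%, against 45.8% with TMM, and the members came to 58 lower and 1 higher. By pattern of calls, 44 members were not called in Taf5l-KO over WT-Taf but lower in Taf6l-KO over WT-Taf and lower in Taf6l-KO than in Taf5l-KO. Both knockout contrasts share the WT-Taf libraries, so their calls are not independent of each other.

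**Figure D2:**
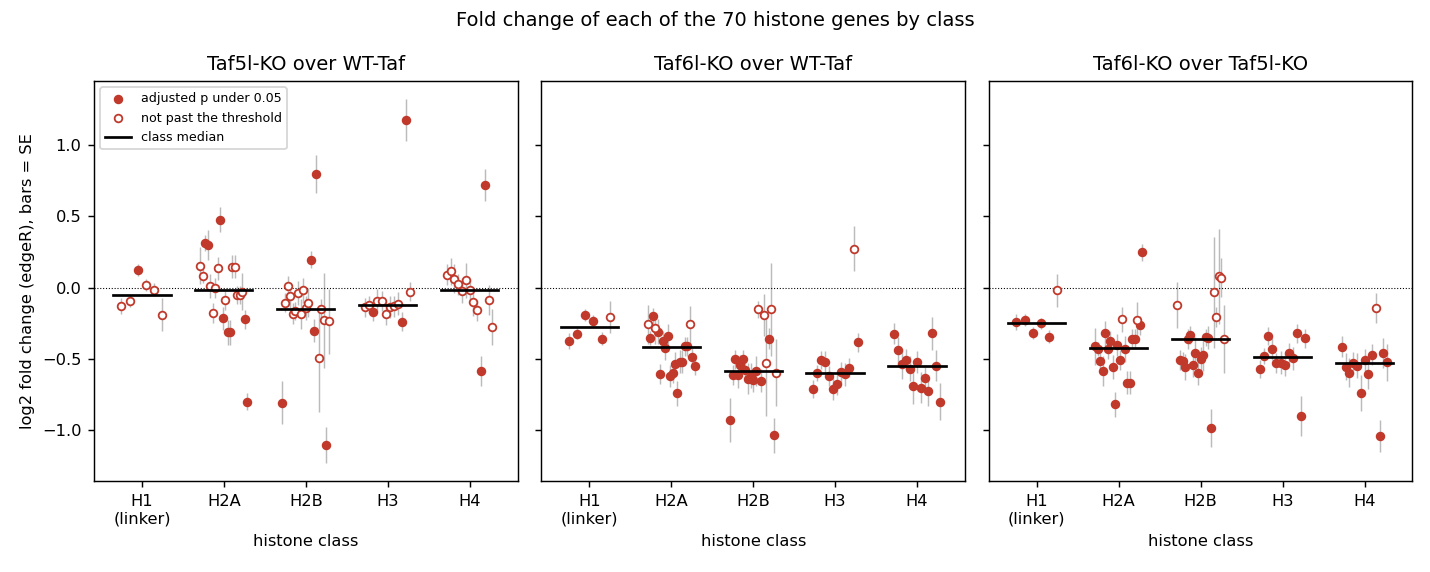
Log2 fold change of each member (points, with SE bars) by histone class in the 3 contrasts, with filled points at an adjusted p under 0.05 and the class median as a black line. In Taf6l-KO over WT-Taf the class medians were -0.28 for H1, -0.42 for H2A, -0.58 for H2B, -0.60 for H3 and -0.55 for H4.

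Linker genes had a smaller median fall than core genes in Taf6l-KO, a difference that was not tested. Of 6 linker members 5 were lower, between -0.37 and -0.20, with a class median of -0.28, while 55 of 64 core members were lower, with a median of -0.54. As summed counts, linker genes held 0.230, 0.223 and 0.217% of each Taf6l-KO library, against 0.274, 0.255 and 0.255% of the WT-Taf libraries, a ratio of means of 0.853. Core genes held 0.961, 0.935 and 0.880% of the Taf6l-KO libraries, against 1.33, 1.28 and 1.26% of the WT-Taf libraries, a ratio of 0.718. The linker share of histone counts was accordingly 19.3, 19.3 and 19.8% in Taf6l-KO and 16.7, 17.0 and 19.1% in Taf5l-KO, against 17.1, 16.6 and 16.8% in WT-Taf. All 3 Taf6l-KO libraries and Taf5l-KO replicate 3 were above the WT-Taf range, and the other Taf5l-KO libraries lay within it. No p is attached to these sums, because the members were chosen with results known.

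**Figure D3:**
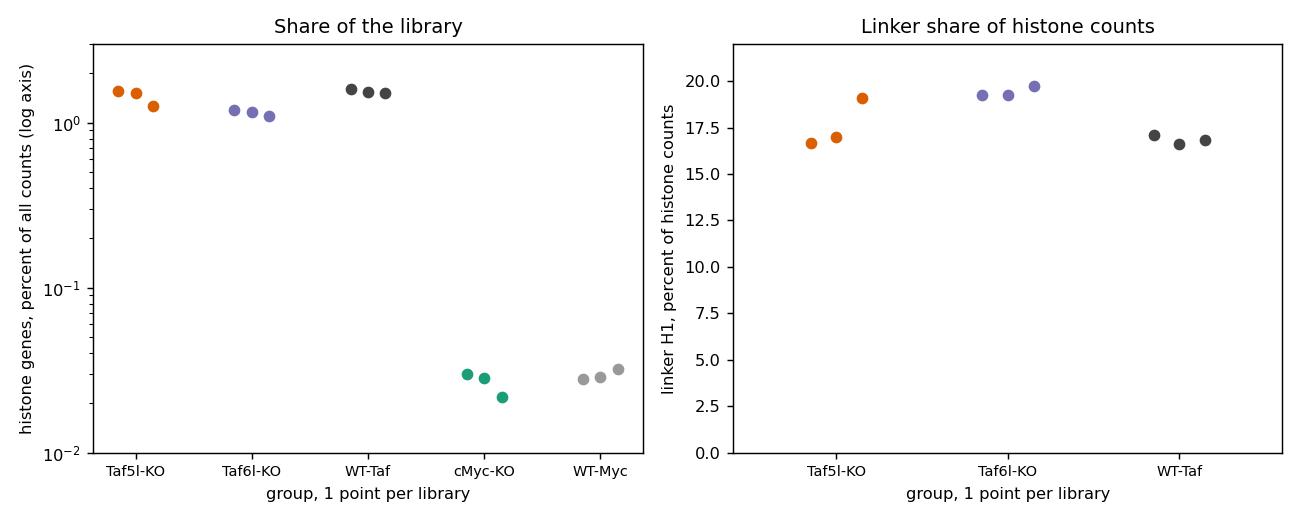
Left, histone counts as a percent of all counts in each of the 15 libraries, on a log axis. Right, the share of histone counts from linker H1 genes in the 9 libraries of the Taf experiment, between 19.3 and 19.8% in Taf6l-KO, against 16.6 to 17.1% in WT-Taf.

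Among the linker genes, Hist1h1a, Hist1h1b, Hist1h1c, Hist1h1d and Hist1h1e encode the somatic H1 subtypes of dividing cells and Hist1h1t the H1 of the testis. Hist1h1a had 536, 516 and 488 CPM in Taf6l-KO, against 712, 643 and 640.5 CPM in WT-Taf, with no overlap (-0.37 ± 0.06, SE, edgeR adjusted p = 1.37e-04). In Taf5l-KO it had 639.7, 632 and 549 CPM, also below WT-Taf, but the test did not pass (-0.13 ± 0.06, SE, edgeR adjusted p = 0.0911). Hist1h1e fell by a similar amount in Taf6l-KO, to 352 ± 18.9 CPM, against 452 ± 14.0 CPM in WT-Taf (SD, n = 3 each). For Hist1h1b the log2 fold change in Taf6l-KO was -0.32 ± 0.04 (SE) and for Hist1h1d it was -0.23 ± 0.04 (SE).

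Hist1h1c was the linker gene called in both knockouts, in opposite directions. It had 453, 465 and 429 CPM in Taf5l-KO and 376, 355 and 347 CPM in Taf6l-KO, against 433, 407 and 395 CPM in WT-Taf. The Taf6l-KO libraries lay below all others, whereas the Taf5l-KO and WT-Taf libraries overlapped. Its change was 0.12 ± 0.04 (SE, edgeR adjusted p = 0.0369) in Taf5l-KO and -0.20 ± 0.04 (SE, edgeR adjusted p = 0.00243) in Taf6l-KO. The higher call in Taf5l-KO was lost in 9 of the 20 alternative fits, with adjusted p up to 0.156. Hist1h1t was low, at 7.15 ± 0.895 CPM in Taf6l-KO and 7.27 ± 0.690 CPM in Taf5l-KO, against 8.26 ± 0.667 CPM in WT-Taf (SD, n = 3 each), and was called in no contrast. Its changes were -0.19 in Taf5l-KO and -0.21 in Taf6l-KO.

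H2A genes fell in Taf6l-KO for 17 of 20 members, between -0.74 (Hist1h2an) and -0.20 (Hist1h2ac). Hist1h2aj, the H2A row with the highest mean count, had 349.7, 349.6 and 307 CPM in Taf6l-KO and 483, 475 and 374 CPM in Taf5l-KO, against 539.9, 504 and 505 CPM in WT-Taf. Both knockouts lay below WT-Taf without overlap, and Taf6l-KO below Taf5l-KO (-0.62 ± 0.08 in Taf6l-KO and -0.22 ± 0.08 in Taf5l-KO, SE). M21 lists this gene as an unprocessed pseudogene, so its reads could belong in part to other H2A genes. Hist2h2aa1 and Hist2h2aa2, copies of the same gene, had equal counts in 8 of 9 libraries and differed by 1 count in the other; both came to -0.41 ± 0.06 (SE) in Taf6l-KO. Hist1h2ao and Hist1h2ap had equal counts in all 9 libraries and came to -0.52 each. Counted without the second copy of both pairs, 58 of 68 members were lower in Taf6l-KO.

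In Taf5l-KO 3 H2A genes were higher and 5 lower. Hist1h2ai had 53.0, 51.6 and 42.6 CPM in Taf5l-KO and 29.0, 29.5 and 24.9 CPM in Taf6l-KO, against 38.2, 32.2 and 35.2 CPM in WT-Taf. The 3 groups did not overlap, with Taf5l-KO highest and Taf6l-KO lowest (0.48 ± 0.09 in Taf5l-KO, -0.34 ± 0.09 in Taf6l-KO, SE). Hist1h2ac showed the same order, with 68.1, 66.4 and 62.5 CPM in Taf5l-KO and 50.8, 43.7 and 43.2 CPM in Taf6l-KO, against 51.6, 53.6 and 52.9 CPM in WT-Taf (0.32 ± 0.06 and -0.20 ± 0.06, SE). Both were higher in Taf5l-KO under every alternative fit, while the lower call in Taf6l-KO was lost in 6 fits for Hist1h2ac and in 1 for Hist1h2ai. Hist1h2ad was called higher in Taf5l-KO (0.30 ± 0.11, SE), with libraries that overlapped those of WT-Taf, and that call was lost in 9 fits. Hist1h2ac, Hist1h2ad, Hist1h2ai, Hist1h2al, Hist1h2an, Hist1h2ao, Hist1h2ap, Hist1h2bc, Hist1h2bn, Hist1h2bp, Hist1h3a, Hist1h3d, Hist1h4i and Hist1h4m are named after their values were seen. The testis H2A gene Hist1h2aa had between 3.38 and 4.08 CPM in Taf6l-KO, against 3.93 to 4.96 CPM in WT-Taf, and was not called in either knockout.

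H2B genes fell in Taf6l-KO for 14 of 19 members. Hist1h2bk, the most counted of them, had 351, 344 and 314 CPM in Taf6l-KO and 546, 572 and 412 CPM in Taf5l-KO, against 532, 511 and 507 CPM in WT-Taf. Taf6l-KO lay below WT-Taf without overlap (-0.62 ± 0.09, SE, edgeR adjusted p = 7.40e-05), whereas Taf5l-KO had 2 libraries above WT-Taf and replicate 3 below it (-0.02 ± 0.09, SE). Hist1h2bg came to -0.50 ± 0.06 (SE) in Taf6l-KO, and the row named Hist2h2bb to -0.36 ± 0.07 (SE). The ID of that row is given in M21 to Gm42743, a lincRNA gene, so whether its counts came from Hist2h2bb mRNA was not tested.

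Hist1h2ba, the H2B of the testis, was lower in both knockouts, with 18.2, 18.4 and 14.0 CPM in Taf6l-KO and 19.7, 22.6 and 12.7 CPM in Taf5l-KO, against 32.8, 34.9 and 28.0 CPM in WT-Taf. Neither knockout overlapped WT-Taf (-0.93 ± 0.15 in Taf6l-KO and -0.81 ± 0.15 in Taf5l-KO, SE), and the knockouts did not pass the test against each other (-0.12 ± 0.16, SE). Hist1h2bq went the other way in Taf5l-KO, at 47.8, 58.6 and 37.8 CPM, against 24.5, 29.0 and 29.8 CPM in WT-Taf, with no overlap (0.80 ± 0.13, SE, edgeR adjusted p = 4.01e-04). In Taf6l-KO it had 27.0, 25.3 and 20.4 CPM, which overlapped WT-Taf. Of the 31-base words of Hist1h2bq, 98.3% are also in Hist1h2br, which came to -0.50 ± 0.37 (SE) in Taf5l-KO and was not called, so the split of reads between them is uncertain. Hist1h2bn was the other H2B gene called higher in Taf5l-KO, by 0.19 ± 0.06 (SE), a call lost in 6 fits.

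H3 genes fell in Taf6l-KO for 11 of 12 members, between -0.71 (Hist1h3a) and -0.38 (Hist2h3c2). Hist1h3h had 346, 338 and 333 CPM in Taf6l-KO and 523, 490.1 and 389 CPM in Taf5l-KO, against 528, 489 and 520.3 CPM in WT-Taf. The Taf6l-KO libraries were below all WT-Taf libraries (-0.60 ± 0.08, SE, edgeR adjusted p = 2.82e-05), while Taf5l-KO replicates 1 and 2 lay within the WT-Taf range and replicate 3 below it. Hist1h3e came to -0.62 ± 0.07 (SE) and Hist1h3c to -0.51 ± 0.06 (SE) in Taf6l-KO. In Taf5l-KO Hist1h3c (-0.17) and Hist2h3b (-0.24) were lower, and Hist2h3b was lower in Taf6l-KO too (-0.56).

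The row named Hist2h3c1 was the H3 row that did not fall. It had 22.8, 22.6 and 15.8 CPM in Taf5l-KO and 12.0, 8.50 and 12.0 CPM in Taf6l-KO, against 8.25, 9.50 and 9.34 CPM in WT-Taf. Taf5l-KO lay above WT-Taf without overlap, the largest positive change of any member (1.17 ± 0.15, SE, edgeR adjusted p = 3.11e-05), and Taf6l-KO overlapped WT-Taf (0.27 ± 0.16, SE). On log2(deposited normalized counts + 1) the Taf5l-KO change was 2.39, and on log2(deposited FPKM + 1) it was 2.25, both from limma. M21 gives the ID of this row to Gm20634, a processed transcript, so whether its counts came from Hist2h3c1 mRNA was not tested. Of the other member IDs, 54 carry the same symbol in M21, 12 were matched by symbol alone and 2 swap the names of Hist2h2aa1 and Hist2h2aa2.

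All 13 H4 genes fell in Taf6l-KO, between -0.80 (Hist4h4) and -0.32 (Hist1h4n). Hist1h4k, the member with the highest mean count and the highest deposited FPKM, had 535, 508 and 476 CPM in Taf6l-KO and 762, 752 and 593 CPM in Taf5l-KO, against 805, 802 and 747 CPM in WT-Taf. Taf6l-KO was below WT-Taf without overlap (-0.63 ± 0.07, SE, edgeR adjusted p = 1.38e-05), and Taf5l-KO overlapped it (-0.16 ± 0.07, SE). The authors' FPKM of Hist1h4k averaged 8205 in Taf6l-KO and 11451 in Taf5l-KO, against 12837 in WT-Taf. FPKM depends on the length the authors used for each gene, which was not checked, so ranks between genes are uncertain. Hist1h4d averaged 2310.0 FPKM in Taf6l-KO and 3353 FPKM in Taf5l-KO, against 3312 FPKM in WT-Taf. Hist1h4f fell by a similar log2 amount in Taf6l-KO (-0.57 ± 0.09, SE).

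The H4 genes Hist1h4n and Hist1h4m went in opposite directions in Taf5l-KO, as the only H4 genes called there with all libraries. Without Taf5l-KO replicate 3, 7 H4 genes were higher and 1 lower, with a class median of 0.11. The shares over all genes in that fit are not given, so whether this is particular to H4 genes was not tested. Hist1h4n had 184, 217 and 154 CPM in Taf5l-KO and 103, 91.7 and 74.3 CPM in Taf6l-KO, against 115, 115 and 106 CPM in WT-Taf. Taf5l-KO was the highest group and Taf6l-KO the lowest, with no overlap, and the knockouts differed by -1.04 ± 0.11 (SE, edgeR adjusted p = 4.15e-05), the largest negative change between them. Its lower call in Taf6l-KO (-0.32 ± 0.12, SE, edgeR adjusted p = 0.0425) was lost in 12 of 20 alternative fits. Hist1h4m, by contrast, had 136, 112 and 89.5 CPM in Taf5l-KO and 100.1, 101 and 105 CPM in Taf6l-KO, against 180.2, 152 and 174 CPM in WT-Taf. Both knockouts lay below WT-Taf (-0.59 ± 0.10 in Taf5l-KO and -0.73 ± 0.10 in Taf6l-KO, SE) and overlapped each other. Hist1h4m and Hist1h4n are closest to each other in sequence, with 85.3% of the 31-base words of Hist1h4n also in Hist1h4m, so the split of reads between them is uncertain.

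**Figure D4:**
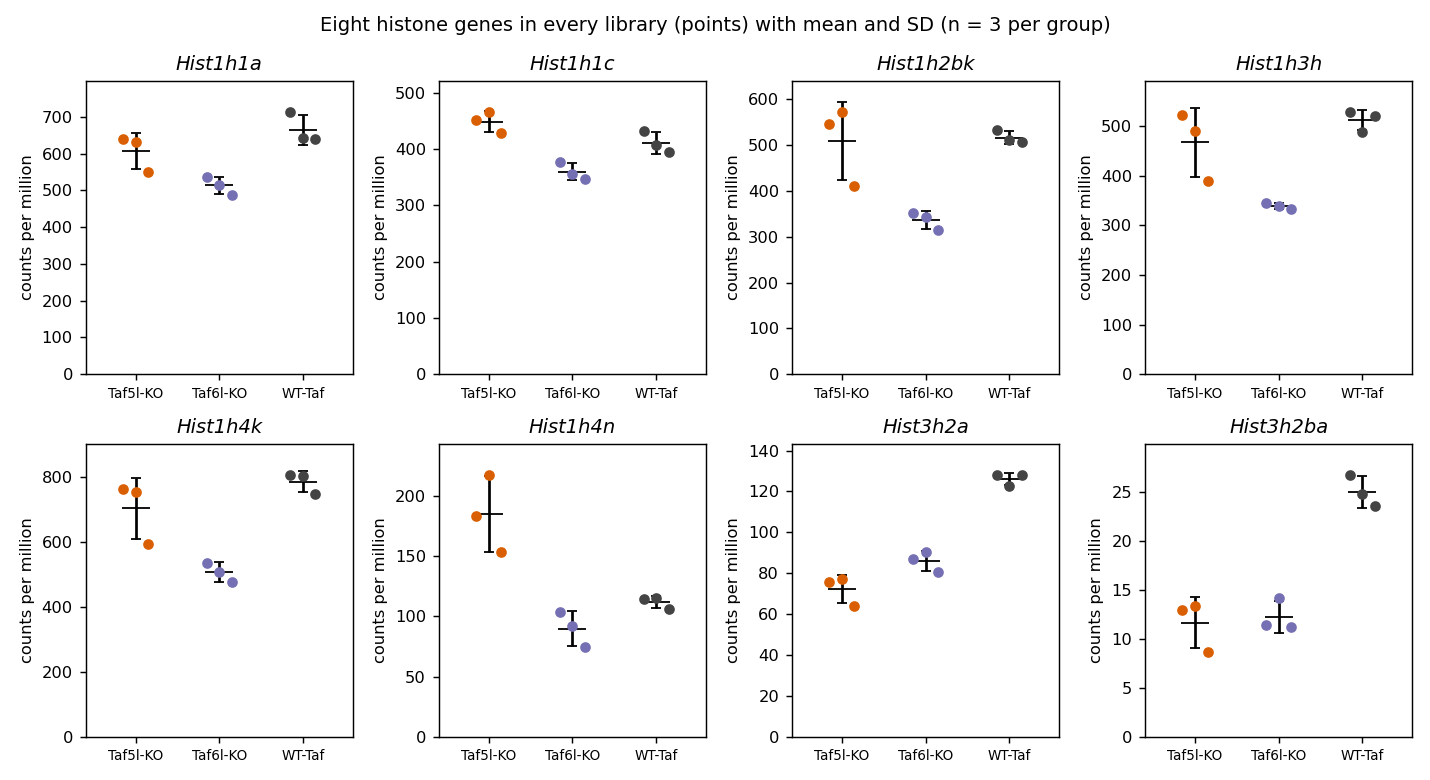
CPM of 8 members in each library (points) with the group mean and SD (n = 3). Hist1h2bk, Hist1h3h and Hist1h4k are low in Taf6l-KO and in 1 Taf5l-KO library, Hist1h4n is high in Taf5l-KO, and Hist3h2a and Hist3h2ba are low in both knockouts.

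Outside the Hist1 cluster, both H2A and H2B genes of the Hist3 cluster were lower in both knockouts. Hist3h2a, an H2A gene, had 75.8, 77.0 and 64.2 CPM in Taf5l-KO and 86.9, 90.4 and 80.7 CPM in Taf6l-KO, against 128, 123 and 128 CPM in WT-Taf. All 3 groups were separate, with Taf5l-KO lowest (-0.80 ± 0.06 in Taf5l-KO, edgeR adjusted p = 1.86e-07, and -0.55 ± 0.06 in Taf6l-KO, edgeR adjusted p = 4.10e-06). It was the member that was higher in Taf6l-KO than in Taf5l-KO (0.25 ± 0.06, SE, edgeR adjusted p = 0.00988). Hist3h2ba, an H2B gene, had 12.9, 13.4 and 8.66 CPM in Taf5l-KO and 11.4, 14.2 and 11.3 CPM in Taf6l-KO, against 26.7, 24.8 and 23.6 CPM in WT-Taf, the largest fall of any member in both contrasts (-1.11 ± 0.13 and -1.04 ± 0.12, SE). These genes lie on chromosome 11, whose 1297 other tested genes had a median of 0.16 in Taf6l-KO (508 higher, 82 lower) and -0.06 in Taf5l-KO (154 higher, 271 lower). Between the knockouts those genes had a median of 0.21, with 540 higher and 19 lower in Taf6l-KO than in Taf5l-KO. The pseudogene row Hist3h2bb-ps had between 1.06 and 2.26 CPM in all 9 libraries and was not called.

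Hist4h4, a lone H4 gene, had 79.5, 67.6 and 60.0 CPM in Taf6l-KO and 116, 109 and 73.8 CPM in Taf5l-KO, against 122, 125 and 114 CPM in WT-Taf. Taf6l-KO lay below WT-Taf (-0.80 ± 0.13, SE, edgeR adjusted p = 2.17e-04), and Taf5l-KO did not pass the test (-0.28 ± 0.13, SE, edgeR adjusted p = 0.110). Of the 10 Hist2 rows, 7 were lower in Taf6l-KO, with a median of -0.40. They included Hist2h2ac (-0.49), Hist2h4 (-0.55) and Hist2h3c2 (-0.38), while Hist2h2ab (-0.26) and Hist2h2be (-0.15, mean count 19.6) did not pass. Hist1h2br, also at the low end with a mean count of 26.3, was not called either.

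Histone genes share much of their sequence, which limits how reads can be assigned. The median member shared 55.2% of its 31-base words with another member, and 65 of 70 have single-exon transcripts only. Among the 29 members that shared under 50%, 23 were lower in Taf6l-KO over WT-Taf, with a median of -0.51, and among the other 41 members 37 were lower, with a median of -0.56. Members with the stem-loop found in their transcript had a median of -0.52 in Taf6l-KO (41 of 44 lower), and those without it -0.54 (19 of 26 lower). No test was run between these subsets.

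The counts of the lists below stand beside the shares of all genes tested, which were 17.4% higher and 15.9% lower in Taf5l-KO and 19.1% higher and 18.2% lower in Taf6l-KO. Of 19 genes that process histone pre-mRNA at the 3′ end, 1 was higher and 3 lower in Taf5l-KO, where 33.2% of all genes were called, and 2 were higher and 6 lower in Taf6l-KO, where 37.2% were called. Nothing about the list is read from these counts. Cpsf2, the partner of the endonuclease in the cleavage complex, fell to 67.8 ± 1.03 CPM in Taf5l-KO and 68.6 ± 1.95 CPM in Taf6l-KO, against 98.8 ± 3.13 CPM in WT-Taf (SD, n = 3). Slbp, the stem-loop binding protein, fell in both (-0.27 ± 0.04 in Taf5l-KO and -0.23 ± 0.04 in Taf6l-KO, SE), with 68.4 ± 2.44 CPM in Taf5l-KO and 70.2 ± 0.402 CPM in Taf6l-KO, against 82.3 ± 2.90 CPM in WT-Taf (SD, n = 3). Zfp473, a U7 snRNP-associated zinc finger protein, rose in both (0.19 ± 0.04 and 0.22 ± 0.04, SE). Lsm11 of the U7 snRNP, on chromosome 11, was higher in Taf6l-KO (0.38 ± 0.07, SE) and did not pass in Taf5l-KO (-0.08 ± 0.07, SE), and Taf6l-KO exceeded Taf5l-KO by 0.46 ± 0.07 (SE, edgeR adjusted p = 5.03e-04).

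Among 15 genes of histone gene transcription, 1 was higher and 8 lower in Taf5l-KO (17.4% and 15.9% over all genes), and 2 were higher and 6 lower in Taf6l-KO (19.1% and 18.2% over all genes). Npat, the coactivator of the histone locus body, came to -0.17 ± 0.04 in Taf5l-KO, which passed, and -0.09 ± 0.04 in Taf6l-KO, which did not (SE). Yy1, a transcription factor, was lower in both (-0.47 ± 0.04 and -0.54 ± 0.04, SE), as were E2f1, an S phase activator (-0.30 ± 0.05 and -0.34 ± 0.05, SE), and Ccna2, which encodes cyclin A2 (-0.17 ± 0.04 and -0.25 ± 0.04, SE). Cdk2, the kinase that acts with cyclin E on NPAT, was higher in both (0.20 ± 0.04 and 0.11 ± 0.04, SE). Coil, which encodes the Cajal body protein coilin and lies on chromosome 11, was higher in Taf6l-KO (0.35 ± 0.04, SE).

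Of 30 S phase and replication genes, 0 were higher and 23 lower in Taf5l-KO, and 0 were higher and 19 lower in Taf6l-KO, where 15.9% and 18.2% of all genes were called lower. The list medians were -0.17 in Taf5l-KO and -0.20 in Taf6l-KO, beside 0.00 and 0.02 over all genes. All 30 had a negative fold change in Taf5l-KO and 29 in Taf6l-KO. Pola1, the catalytic subunit of DNA polymerase alpha, was the lowest (-0.66 ± 0.03 and -0.83 ± 0.03, SE), followed among those named by Mcm6 of the replicative helicase (-0.36 ± 0.03 and -0.42 ± 0.03, SE), Rrm2 of ribonucleotide reductase (-0.32 ± 0.03 and -0.38 ± 0.03, SE) and Uhrf1, which maintains DNA methylation after replication (-0.27 ± 0.03 and -0.37 ± 0.03, SE). Their part in the histone values was not tested.

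Of 19 histone mRNA decay genes, 3 were higher and 2 lower in Taf5l-KO, where 33.2% of all genes were called, and 4 were higher and 5 lower in Taf6l-KO, where 37.2% were called. Zcchc11, a terminal uridylyl transferase, was higher in both (0.26 ± 0.05 and 0.23 ± 0.05, SE), and Upf1, an RNA helicase of histone mRNA decay, was lower in Taf6l-KO (-0.16 ± 0.04, SE; -0.09 ± 0.04 in Taf5l-KO, not passing). Exosc10, a nuclease of the exosome, was higher in both by edgeR (0.22 ± 0.03 and 0.11 ± 0.03, SE), but its Taf6l-KO change was -0.037 by limma on the deposited normalized counts and on FPKM. Of 17 chaperone genes, 3 were higher and 5 lower in Taf5l-KO (17.4% and 15.9% over all genes), and 0 were higher and 10 lower in Taf6l-KO (19.1% and 18.2% over all genes). The lower ones in Taf6l-KO included Atrx (-0.51 ± 0.04, SE), which with Daxx deposits H3.3, Nasp (-0.26 ± 0.04, SE), which holds H3 and H4, and Chaf1a (-0.19 ± 0.03, SE), a subunit of CAF-1, which loads H3 and H4 at replication.

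Of 12 replacement histone genes, whose mRNAs are polyadenylated, 3 were higher and 5 lower in Taf5l-KO (17.4% and 15.9% over all genes), and 1 was higher and 5 lower in Taf6l-KO (19.1% and 18.2% over all genes), with medians of -0.06 and -0.03. H2afx, whose transcript can also end in a stem-loop, fell to 313 ± 4.06 CPM in Taf6l-KO and 409.8 ± 14.1 CPM in Taf5l-KO, against 446 ± 9.66 CPM in WT-Taf (SD, n = 3), and was lower in Taf6l-KO than in Taf5l-KO (-0.39 ± 0.03, SE). H3f3a, which encodes H3.3, was lower in both (-0.33 ± 0.03 and -0.39 ± 0.03, SE), as were H3f3c (-0.54 ± 0.06 and -0.47 ± 0.05, SE) and H2afy2, which encodes a macroH2A (-0.76 ± 0.11 and -0.62 ± 0.10, SE). H2afy, which encodes the other macroH2A, was higher in both (0.37 ± 0.03 and 0.11 ± 0.03, SE). Of the 13 SAGA genes tested, 5 were higher and 2 lower in each knockout (33.2% of all genes were called in Taf5l-KO and 37.2% in Taf6l-KO), the lower ones being Taf5l and Taf6l in Taf5l-KO, and Taf6l and Kat2b, an acetyltransferase, in Taf6l-KO. Tada3, of the acetyltransferase module, was higher in both (0.24 ± 0.04 and 0.12 ± 0.04, SE), and Usp22, the deubiquitinase, on chromosome 11, reached 0.32 ± 0.03 (SE) in Taf6l-KO.

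**Figure D5:**
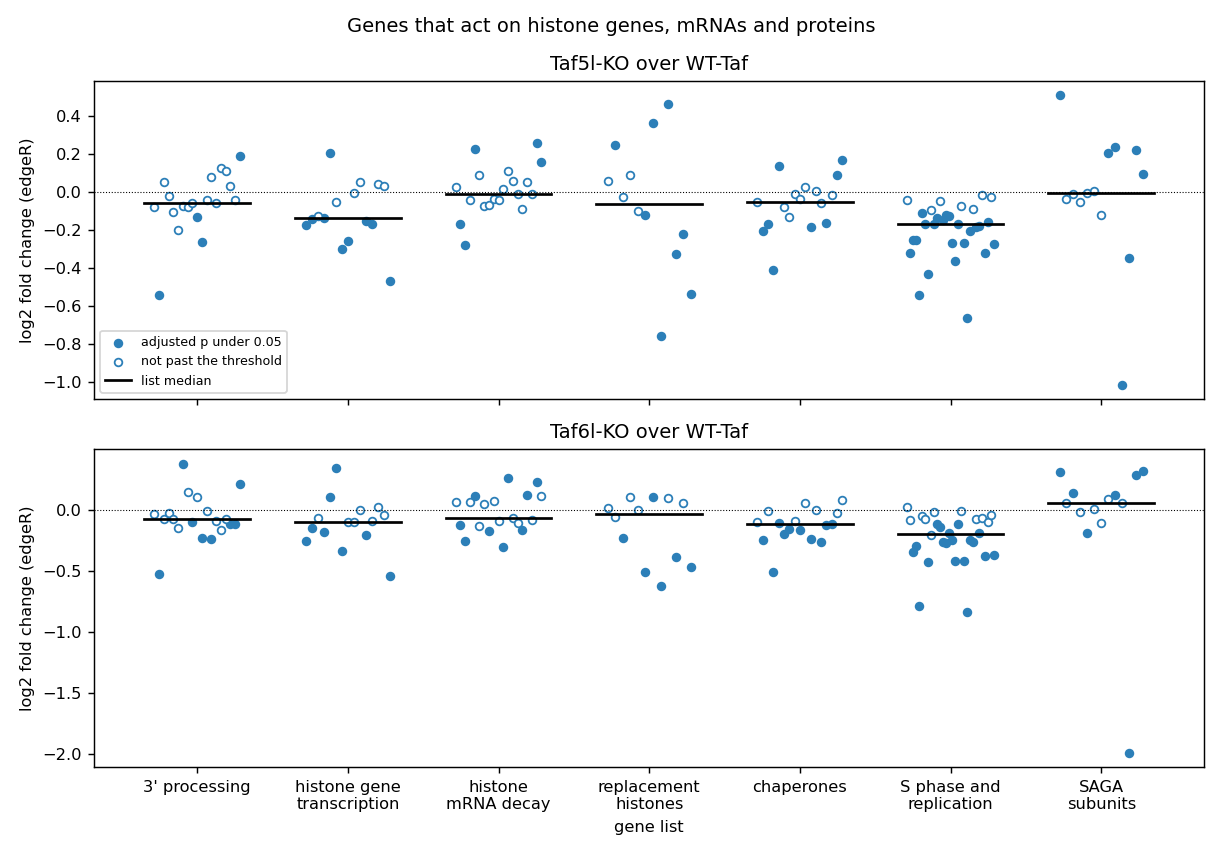
Log2 fold change of each tested gene of 7 lists, Taf5l-KO over WT-Taf above and Taf6l-KO over WT-Taf below, with filled points at an adjusted p under 0.05 and list medians as black lines. The S phase list has the lowest median in both, -0.17 and -0.20, and the point at -1.99 is Taf6l itself.

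In the Myc experiment the same genes were close to the floor of the libraries. Histone counts made up 0.0301, 0.0285 and 0.0216% of the cMyc-KO libraries, against 0.0280, 0.0288 and 0.0322% of the WT-Myc libraries, where WT-Taf had between 1.52 and 1.60%. The median member had a mean of 7.42 counts over those 6 libraries and 3000.3 counts over the 9 libraries of the Taf experiment, and 65 of 70 members had a mean under 50. Hist1h2aj, Hist1h2ao and Hist1h2ap supplied 87.3% of the histone counts there. Mitochondrial ribosomal RNA was also low in those 6 libraries, between 0.0453 and 0.146% of counts, and small non-coding RNA between 0.0206 and 0.0569%. The labels give the same ribosomal depletion protocol for both experiments, and what the low share of RNAs without poly(A) tails reflects was not tested. No contrast of histone genes was drawn from the Myc experiment.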

How the data were processed

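Gene counts of 15 RNA-seq libraries were used, 9 of the Taf experiment for the tests and 6 of the Myc experiment for levels and for an alternative fit of all 15. Per the labels' protocols, total RNA was depleted of ribosomal RNA and made into libraries with a directional kit. Whole-number estimated counts were deposited by the authors for each gene, with normalized counts, a signal whose scaling method no label or header states, and FPKM values. Salmon 0.8.2, DESeq2 1.14.1 and the build mm9 are named in the submitters' processing notes, with no role for each. A further table of the authors had 15 per-sample columns that were not assigned to samples and were not used. Groups follow the sample titles.

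Counts were scaled by TMM and tested with the edgeR 4.0.16 quasi-likelihood test (R 4.3.3) on the 9 libraries together, after a filter on low counts that left 15743 genes, with Benjamini-Hochberg adjustment over all of them and a threshold of 0.05. SE is the log2 fold change over the square root of F. The procedure was tested on simulated data, where the share of false calls was above the threshold in both contrasts against WT-Taf and the smallest changes were recovered only in part. Library totals ran between 14935631 and 21767884 counts in the Taf experiment and between 17922864 and 27650813 in the Myc experiment. Same-numbered libraries did not deviate together, and no 2 replicates agreed within sampling noise. Alternatives were other scalings, no filter, DESeq2 1.42.0, a replicate block, each library left out, all 15 libraries, only the groups compared, protein-coding genes, and limma 3.58.1 on log2(value + 1) of the deposited normalized counts and FPKM, as well as fits without chromosome 11 genes and member subsets chosen after seeing the data.

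Members and gene lists were chosen with earlier results of these data known. Named members are all linker genes, the 3 most counted of each core class, all outside the Hist1 cluster, the 2 largest changes per direction and contrast, and those not called in either knockout, 34 in all; other members named were chosen after their values were seen. Of each list the 4 genes with the smallest p per knockout could be named. Annotation came from GENCODE M21 (GRCm38). Chromosome and gene type of all rows were matched by ID, which 87.4% of rows had in M21, and member transcripts were matched by symbol. Rows without a match are absent from the chromosome 11 and small RNA values. Promoters came from RefSeq (GRCm38.p6), with Python 3.11.15, pandas 2.3.3 and matplotlib 3.10.9.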

Additional observations from a re-analysis of the deposited data

Results flagged for a closer look

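Hist1h1c, Hist1h2ac, Hist1h2ai and Hist1h4n were called in opposite directions in the knockouts, higher in Taf5l-KO and lower in Taf6l-KO than in WT-Taf, and the knockouts differed in the direct test. The log2 difference of Taf6l-KO minus Taf5l-KO was -0.32 for Hist1h1c, -0.51 for Hist1h2ac, -0.82 for Hist1h2ai and -1.04 for Hist1h4n, each past the edgeR threshold.

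The Myc experiment, from which no contrast is reported, held counts of a few members well above its median member. Hist1h2aj averaged 2246.0 counts over its 6 libraries, Hist1h2ao and Hist1h2ap, whose counts were equal in the 9 libraries of the Taf experiment, 1688.3 each, and Hist1h2bc 113.7.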

How the results depend on the processing

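In Taf6l-KO over WT-Taf the number of lower members stayed between 57 and 63 and the median between -0.58 and -0.46 under the alternatives run on all members. For Taf5l-KO over WT-Taf, 39 members were called without the filter, 12 with all 15 libraries and 9 with limma on FPKM. Its lower calls numbered 20 with library totals, 27 without the filter, 19 with the replicate block, 7 with all 15 libraries, 17 with protein-coding genes and 4 with limma on FPKM. Its higher calls numbered 5 with all 15 libraries and with limma on either unit. Leaving out 1 library gave between 5 (without WT-Taf replicate 1) and 21 (without Taf5l-KO replicate 1) lower. It gave between 5 (without Taf5l-KO replicate 2) and 16 (without Taf5l-KO replicate 3) higher. Calls over all genes moved too, with 2752 lower by library totals and 1947 with all 15 libraries, against 2499 in the main fit. The higher calls over all genes were 1929 with all 15 libraries, against 2735 in the main fit. For the other alternatives the counts over all genes are not given. Hist1h4i, -0.02 in all libraries, ranged between -0.081 and 0.10 when 1 library was left out. In Taf6l-KO, 1 member was higher without the filter, and Exosc10 was -0.037 with limma on FPKM and on normalized counts.

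Between the knockouts, library totals gave medians of -0.35 for all members, -0.16 for linker and -0.38 for core genes, and leaving out 1 library gave -0.55 to -0.38 for all and -0.58 to -0.40 for core. The higher count was 0 with limma on either unit, where the member concerned is Hist3h2a.

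Among lists in Taf5l-KO, 3′ processing had 2 calls with limma on either unit and transcription 5 with limma on FPKM. Decay had 3 with all 15 libraries, 1 with limma on FPKM and 3 on normalized counts, and chaperones had 4 with DESeq2, 4 with all 15 libraries, 2 with limma on FPKM, 5 on normalized counts and 5 to 7 with 1 library left out. In Taf6l-KO, decay had 4 with all 15 libraries and 5 with limma on FPKM, replacement histones 3 with all 15 libraries, chaperones 6 to 11 with 1 library left out, and SAGA 4 with DESeq2 and with limma on FPKM and down to 4 with 1 left out. The cause was not tested for any of these.

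With the replicate number as a block, 8 members were higher and 19 lower in Taf5l-KO and 62 lower in Taf6l-KO, but same-numbered libraries had correlations of deviations between -0.08 and 0.07, so the numbers do not pair the libraries. Low members such as Hist2h2be and Hist1h2br have too few counts for small changes to be detectable.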
